A study of Drosophila melanogaster with 9 samples.

Results

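The libraries described here were made from midguts of control virgin females of the fruit fly Drosophila melanogaster. They were chosen by title, as the only libraries titled as female controls, and they are 3 of the 9 libraries in the study. The flies had the w1118 strain background. The labels give no other genotype for these controls, so whether they carried a driver or a transgene is not known here. The labels give an age of 15 days, and their treatment text describes 10 days at 29 °C after 3 days at 18 °C, a shift meant to switch on transgenes. These days do not add up to the stated age, and the difference could not be settled. Each library came from a pool of 30 midguts and 500 ng of RNA, was made with a strand-keeping kit for poly(A) RNA, and was read from both ends over 100 bases. Nothing in the labels says that the pools were separate cultures. The sample labels and the design text name different sequencer models, each for all libraries alike. The spread given below is that of these 3 pools and may be technical in part.

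The adult midgut digests food and takes up its products. Absorptive enterocytes make up most of it and secrete proteases, glycosidases and lipases. They are replaced from intestinal stem cells through enteroblasts, while scattered enteroendocrine cells release peptide hormones. The tube is divided along its length into regions with their own transcription factors, and a middle region of copper cells acidifies the lumen. Visceral muscle, tracheae and nerve endings stay attached to it in a dissection.

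Counts assigned to genes came to 93765308, 105248239 and 104328153 in replicates 1, 2 and 3. Levels are given as CPM, which is a gene's count scaled to a library of 1000000 gene counts, and as CPM per kb, the same divided by the annotated exon length in units of 1000 bases. Where levels of different genes are set side by side, CPM per kb is used. A gene is called used at a mean of at least 1 CPM, silent under 0.1 CPM in all 3 libraries, and at trace level in between. A count of 0 allows up to 3 counts, which is 0.0320, 0.0285 and 0.0288 CPM in replicates 1, 2 and 3. Such limits cover counting error only, because copies made by PCR were not marked. Replicate 3 stood apart from the others. Across used genes, log2 CPM correlated at r = 0.975 between replicates 1 and 2, at 0.955 between 1 and 3 and at 0.960 between 2 and 3. These are descriptions across genes, which are not independent. Values for single libraries are therefore given throughout in the order replicate 1, 2 and 3.

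About as many gene identifiers were in use as were not. Of 15682 identifiers, 8114 were used (51.7%), 2141 were at trace level and 5427 were silent (34.6%), of which 3199 had no count in any library. Leaving out replicate 3 gave 8059 used genes and 5631 silent ones. A mean of at least 10 CPM was reached by 5752 genes, at least 100 by 1609 and at least 1000 by 161. Protein-coding genes took 94.3% of the counts and identifiers without an entry in the annotation took 5.38%. Genes annotated as non-coding RNA took 0.297%, most of it from lncRNA:CR42862. lncRNA:CR42862 had 220395, 248689 and 238339 counts, a mean of 2333 ± 42.1 CPM, so its libraries lay close together.

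A few genes took a large part of the counts. The 10 leading genes held 14.4 ± 2.20% (SD, n = 3) of the gene counts, the first 30 held 24.6 ± 3.36% and the first 100 held 37.8 ± 3.63%. In single libraries the share of the first 30 was 25.8%, 27.3% and 20.9%. Replicate 3 was thus the least concentrated, and it needed 265 genes to reach 50% of its counts, against 198 in replicate 1 and 181 in replicate 2. Without replicate 3 the first 30 held 26.5%, and 29 of the 30 genes were still among the first 30.

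**Figure D1:**
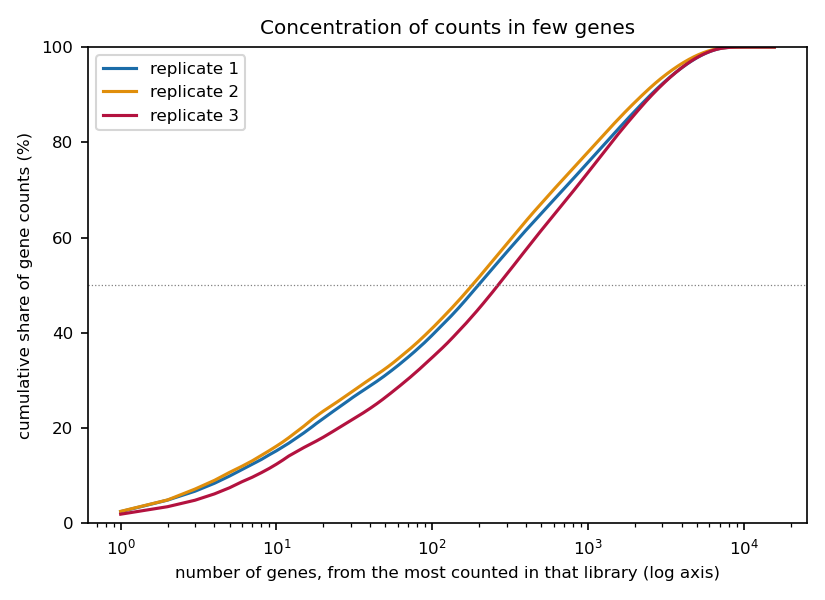
Cumulative share of gene counts (%) against the number of genes taken in order from the most counted, on a log axis, with 1 line for each control library. The line of replicate 3 lies below the others, and it crosses the dotted 50% line at 265 genes, against 198 and 181 genes.

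Secreted digestive enzymes led the ranking. The most counted gene was alphaTry, a trypsin that cuts proteins after basic residues, with 24239.8, 23982 and 15759.7 CPM and a mean of 21327 ± 4823. Next came CG12374 with a mean of 21148 ± 6569 CPM and the Jonah protease Jon65Aiv with 19596 ± 3081 CPM. Per kb, alphaTry (24799 ± 5608 CPM per kb) and Jon65Aiv (21677 ± 3408) stood above CG12374 (14445 ± 4487). The range of alphaTry and Jon65Aiv overlaps, so their order is within the spread between libraries. Bace, which encodes an aspartic protease, had 18653, 18304 and 8852 CPM. Replicate 3 was below the others for alphaTry, CG12374 and Bace, while Jon65Aiv was lowest in replicate 1.

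Other enzymes among the first 30 were betaTry, Jon65Aiii, yip7, Jon25Biii, Jon99Cii, Jon99Ciii, Jon99Fii and Jon74E, which are serine proteases, and Mal-A1, Mal-A6, tobi, Amy-p and LManVI, which act on sugar chains. CG31198, CG10911, CG10472, CG17633, CG31343, CG5107, CG31233 and CG6295 are known here only by annotation numbers. The identifiers FBgn0000556 and FBgn0001219 were not paired with a symbol. The genes of the first 30 whose symbols point to roles in every cell were Act5C, a cytoplasmic actin, Vha16-1, the membrane subunit of the vacuolar proton pump, and eEF2, which moves the ribosome along the messenger. Act5C had 3965, 6125 and 8996 CPM, lowest in replicate 1 and highest in replicate 3. eEF2 had 4980, 4548 and 4136 CPM, a narrow range. Dividing by exon length kept 20 of the first 30 genes. Acbp5, an acyl-CoA-binding protein with 6586 ± 1917 CPM per kb, and the short ribosomal protein gene RpL41 with 4175 ± 520 CPM per kb were among those that entered.

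**Figure D2:**
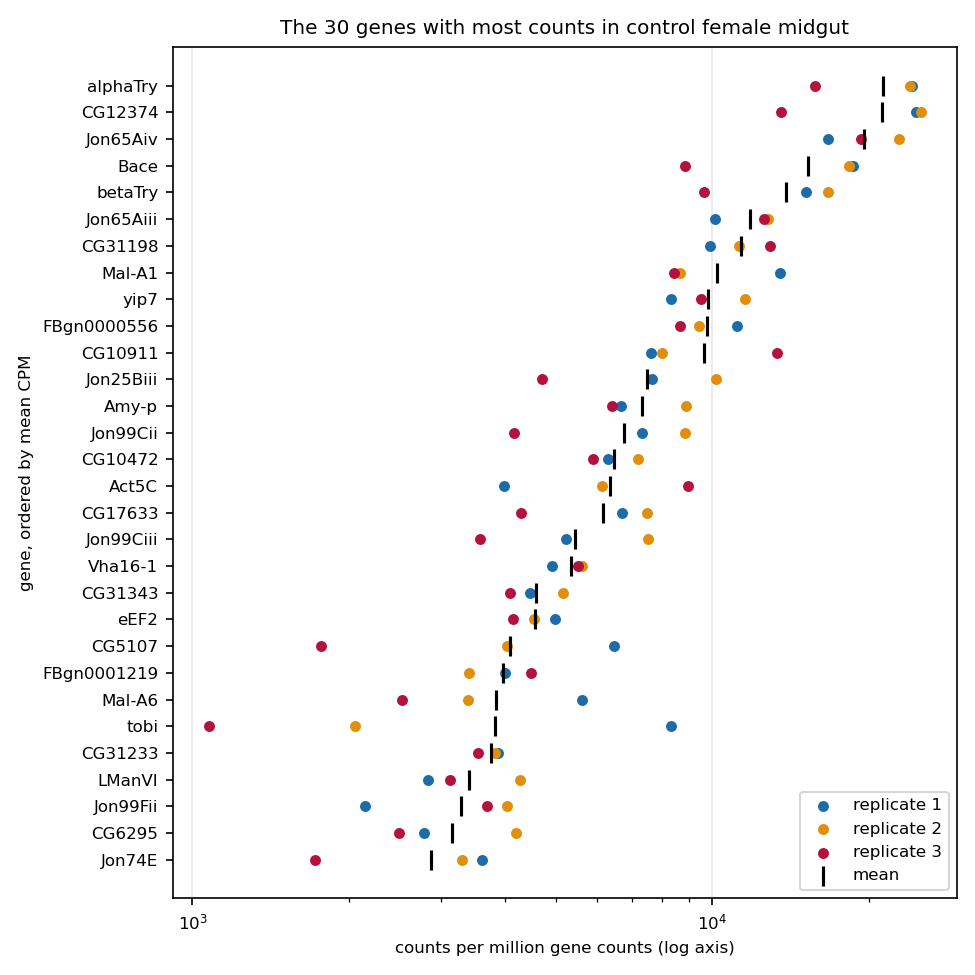
The 30 genes with the highest mean CPM (vertical axis) and their counts per 1000000 gene counts on a log axis, with 1 point for each control library and a bar at the mean. Replicate 3 is the lowest library for 20 of the 30 genes, with a gap to the others for Bace, CG5107 and tobi, and the highest for 4, Act5C and CG10911 among them.

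The leading genes also shared features that the ranking did not use. Their exons were short, with a median of 1295 bases in the first 30 and 1464 in the first 100, against 2101 over all used genes. Of the 28 leading genes with an annotation, 1 lay on the X chromosome, and 7.37% of the first 100 did so, against 16.7% of all used genes. Of those 28 genes, 5 overlapped the span of an opposite-strand gene and 2 that of a same-strand gene, introns included. Whether exons overlap was not checked, and the counting mode was not given in the sources used here. The effect on their counts is therefore not known.

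All 16 Jonah proteases, which are digestive serine proteases of the chymotrypsin type, were in use. Together they took 5.82%, 7.79% and 5.48% of the gene counts, or 6.36 ± 1.25%. Their levels ran from Jon65Aiv down to Jon66Cii, which had 1.73, 6.19 and 14.0 CPM. Replicate 3 was the highest library for Jon66Cii. Jon25Bii had 166, 1063 and 521 CPM and was lowest in replicate 1. Some Jonah genes lie in near-identical pairs, and reads that matched both copies were not counted, so values within a pair are uncertain.

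Trypsins were more unequal. Of 15 members 13 were used, and the list took 4.61%, 4.71% and 3.03% of the gene counts. The first 3, alphaTry, betaTry and epsilonTry, held 92.2% of it. betaTry had 15156, 16712 and 9621 CPM and epsilonTry 3273, 3185 and 1939.7 CPM, both lowest in replicate 3. At the other end stood deltaTry (7.75, 7.06 and 12.1 CPM), gammaTry (1, 8 and 2 counts) and Ser12 (no count), members named here after their values were seen. deltaTry and gammaTry are near-identical copies, so a low count there does not tell a silent gene from an uncounted one.

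All listed amylases and maltases were used. Amy-p, an amylase that cuts starch, had 6660, 8907 and 6405 CPM and held 83.2% of the counts of its list. Its near copy Amy-d had 1373, 1612 and 1211 CPM, and the related Amyrel 106, 109 and 28.0 CPM. All 3 were highest in replicate 2 and lowest in replicate 3. All 11 maltases, which split short sugar chains into glucose, were used, with 3.67%, 1.90% and 1.52% of the gene counts. Mal-A1 had 13473, 8652 and 8447 CPM and held 43.2% of the list. The alpha-glucosidase tobi, known as a target of insulin signalling from the brain, had 8319, 2056 and 1074 CPM, and Mal-A8 had 4239, 1342 and 811 CPM. Both stood far higher in replicate 1 than in the others. Per kb, Mal-A1 reached 5581 ± 1558 CPM per kb and Amy-p 4391 ± 825, which overlap. Among sugar transporters and trehalase 5 of 9 were used, and only Treh, the trehalase, passed 100 CPM, with 958, 679.5 and 852 CPM.

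Among fat and sterol genes, the counts of the listed lipases came mostly from 1 gene. mag, a lipase that digests dietary fat and sterol esters, held 91.2% of the counts of the 7 listed lipases, of which 5 were used. It had 2598, 2844 and 789.8 CPM, with replicate 3 at 0.290 of the mean of the others. bmm, the lipase of stored fat, had 81.4, 153 and 167 CPM. Npc1b, a membrane protein needed to absorb sterol, had 459.6, 915 and 824 CPM, the most counts of the 10 Npc genes, of which 8 were used. Of the small secreted Npc2 proteins, Npc2e had 319.9, 533 and 589.7 CPM and Npc2c 0.267, 0.0855 and 12.9 CPM. In the list for making and carrying fatty acids 16 of 17 genes were used, led by Acbp5 with 1514, 2782 and 2362 CPM.

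Counted together, the lists of Jonah proteases, trypsins, amylases, maltases, lysosomal-type alpha-mannosidases and lipases had 58 members, 54 used and 3 silent. They took 15.8%, 16.6% and 11.4% of the gene counts, or 14.6 ± 2.76%. Replicate 3 was again the lowest. Bace, yip7 and CG12374 are in none of these lists, so the sum is not a total for digestive enzymes.

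Junction genes were in use throughout, and mucins about as often as all genes. All 10 genes of the smooth septate junction, which seals the midgut epithelium, were used. Its core proteins were mesh (1096, 1407 and 3009 CPM), Ssk (485, 437 and 861 CPM) and Tsp2A (193, 219.5 and 395 CPM), each highest in replicate 3. Of 23 mucins and peritrophins, which form the lining of the lumen, 12 were used. Mur29B had 244, 347 and 2385 CPM, Muc68E 353, 334 and 588 CPM, and Peritrophin-15a 267, 417 and 368 CPM. The mean of Mur29B therefore rests on replicate 3. The 16 genes of the chitinase and Idgf families included 10 used ones, none of them at 100 CPM.

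By library totals, counts of proton pump genes were even between libraries. The vacuolar proton pump, which acidifies compartments and, in copper cells, the lumen, took 1.45%, 1.54% and 1.49% of the gene counts. Of its 28 genes 15 were used, 4 were at trace level and 9 were silent. With TMM scaling, which balances the typical gene between libraries, 12 of the 15 used genes were highest in replicate 2. By library totals 6 were, and over all used genes 2250 of 8111 were with TMM scaling. Vha16-1 had 4909, 5623 and 5506 CPM, Vha68-2 had 2313, 2402 and 2259 CPM, and Vha55 had 1879.8, 2003 and 1890.1 CPM. Some subunit classes with numbered copies had nearly all counts on 1 copy. Vha16-2 and Vha16-3 had no count and Vha16-4 and Vha16-5 stayed under 0.1 CPM on average, and in the same way Vha14-2 and Vha36-2 were silent beside Vha14-1 (mean 284 CPM) and Vha36-1 (506, 516 and 526 CPM). The large membrane subunit was spread over more copies: Vha100-5, Vha100-2, Vha100-4 and Vha100-1 were used, with means of 879.5, 442, 341 and 70.4 CPM, and Vha100-3 had no count. These copies were named after their values were seen.

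Carbonic anhydrases, which supply protons, used 5 of 13 members: CAH2 (mean 358 CPM), CAH1 (200.1), CAH7 (143), CAH3 (110) and CAH9 (19.1). None of them differed 2-fold between libraries, where 14.5% of all used genes did. With 5 genes this cannot be told from that share. Metal handling used 13 of 17 genes. Fer1HCH and Fer2LCH, the heavy and light chains of secreted ferritin, had means of 2591 ± 400 and 2235 ± 463 CPM. Metallothioneins, which bind copper and zinc, differed more. MtnA had 555, 345 and 162 CPM and MtnC 649.7, 248 and 152 CPM, both highest in replicate 1, whereas MtnF had 7 counts in replicate 1 and none in the others.

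Genes for recognition of bacteria were mostly in use and those for antimicrobial peptides mostly were not. Of 13 peptidoglycan recognition proteins 10 were used. PGRP-SC2, which breaks peptidoglycan down, had 869.9, 1430.1 and 735 CPM, and PGRP-LB, of the same activity, 110, 161 and 141 CPM. The receptors PGRP-LE and PGRP-LC had means of 81.5 and 54.8 CPM. Of 21 antimicrobial peptide genes 3 were used, 13 were at trace level and 5 were silent. The 3 were Drsl3 (2.15, 1.30 and 10.4 CPM), AttD (0.0640, 0.979 and 2.29 CPM) and DptB, whose counts were 2, 770 and 7. DptB counts as used through replicate 2. Leaving out replicate 1 gave 5 used genes and leaving out replicate 3 gave 2. Drs and BaraA2, further antimicrobial peptide genes, matched no identifier and were not analysed here. The Turandot stress genes had 2 used of 8, TotM and TotC, and digestive lysozymes 6 of 7, led by LysD (131, 192 and 116 CPM). LysB to LysE are near-identical copies and their values are uncertain.

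Detoxification families were broadly in use. Of 84 cytochrome P450 genes 60 were used and 9 silent, of 35 glutathione transferase genes 29 and 1, and of 35 UDP-glycosyltransferase genes 28 and 3. Among P450 genes the most counted were Cyp6d5 (2129, 1560.3 and 915 CPM), Cyp12a4 (970.3, 1061 and 566 CPM) and Cyp9f2 (732, 688 and 682 CPM). GstD1 led the transferases with 1039, 1152 and 1354 CPM, and Ugt37D1 and Ugt35C1 the third family with 289 CPM each on average. Of the used P450 genes 39 of 60 were lowest in replicate 3, against 1702 of all 8114 used genes.

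Of the single lists, cytoplasmic ribosomal proteins took the largest share. They had 9.68%, 8.82% and 7.18% of the gene counts, or 8.56 ± 1.27%, with 79 of 88 genes used and 42 at a mean of at least 1000 CPM. The most counted were RpL5 (3581, 2635 and 2219 CPM), RpL3 (2889, 2537 and 1909 CPM) and RpLP1 (2337, 2060.2 and 1692 CPM), all lowest in replicate 3. Mitochondrial ribosomal proteins were nearly all used (70 of 71) but took 0.136% of the counts. Of 48 translation factors 38 were used, of 39 complex I genes 32, of 16 ATP synthase genes 12 and of 47 proteasome genes 31. Many unused members carry the symbols of second copies. Of 15 proteasome symbols with the endings R or T none was used and 12 were silent, and of 20 respiratory symbols with the ending L 3 were used and 14 were silent.

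A low count did not always mean an unused gene. All 37 mitochondrially encoded genes were listed at 0. RpL15, ND-AGGG, UQCR-11 and eIF4B, which cells of many kinds need, were also at 0, and ND-B8 had 1 count in all. What kept these from being counted was not tested. A 0 in these tables therefore does not by itself show that a gene was silent.

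**Figure D3:**
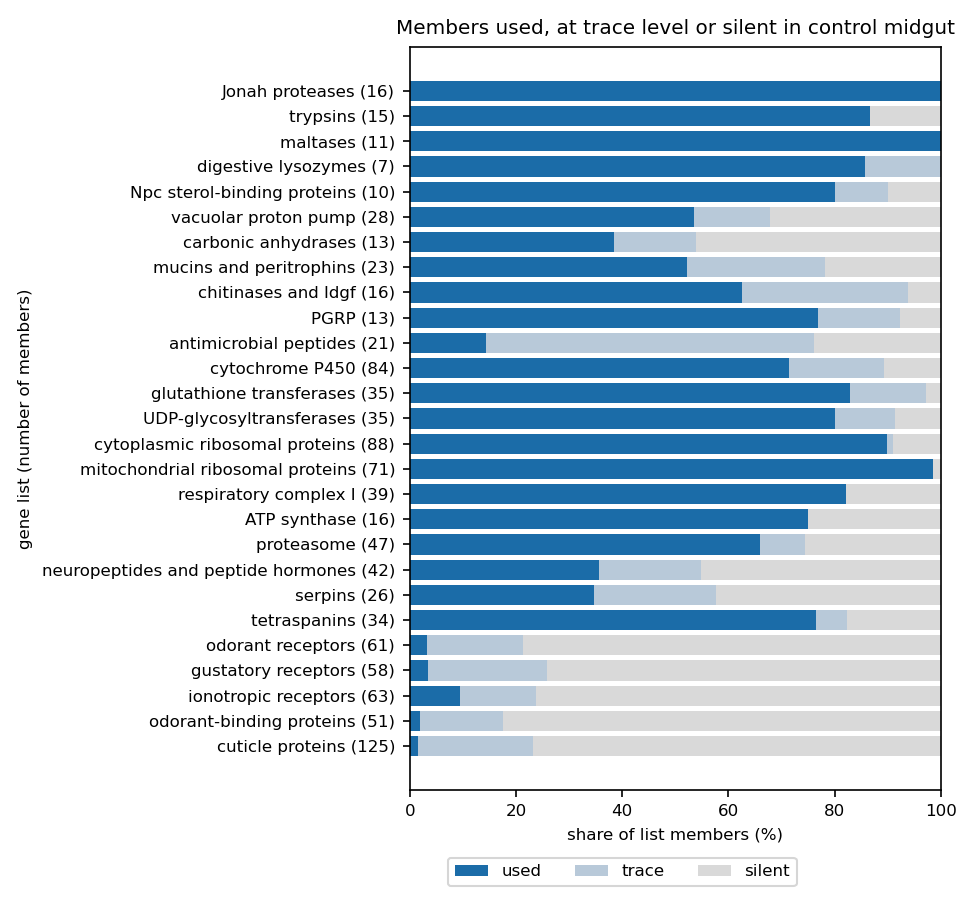
Share (%) of the members of each gene list that were used (mean of at least 1 CPM), silent (under 0.1 CPM in all 3 control libraries) or at trace level, with the number of members in brackets. All 16 Jonah proteases and 11 maltases are used, 3 of 21 antimicrobial peptide genes are, and most receptors of smell and taste and cuticle proteins are silent.

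Markers of the midgut's own cell types were present. All 11 enterocyte markers were used, among them Myo31DF (616, 637 and 758 CPM), a myosin of the enterocyte, mex1 (261, 266 and 405 CPM) and the transcription factor nub (164, 150.2 and 269 CPM). All 16 matched progenitor markers were used, and none reached 100 CPM. In bulk tissue, fewer cells of a type and less RNA per cell cannot be told apart. The transcription factors Sox21a (8.76, 14.1 and 58.1 CPM) and Sox100B (12.3, 16.03 and 45.4 CPM), both needed in progenitors, were higher in replicate 3. esg, Dl and hdc, further progenitor markers, did not match an identifier in the name table and were not analysed here.

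By library totals, enteroendocrine markers were even between libraries. Of 18 markers 16 were used and none of these differed 2-fold between libraries, against 14.5% of all used genes. With TMM scaling 11 of the 16 were highest in replicate 2, against 2250 of 8111 used genes. Of 42 genes for neuropeptides and peptide hormones 15 were used and 19 silent. The most counted were CCHa2, a peptide that links nutrition to growth, with 180.2, 215 and 182 CPM, AstC, an inhibitory peptide, with 144, 142 and 145 CPM, and Orcokinin with 111, 111 and 98.7 CPM. Tachykinin (Tk) had 100.2, 103 and 90.6 CPM and neuropeptide F (NPF) 61.3, 55.9 and 44.9 CPM. Per kb, CCHa2 (132 ± 13.4 CPM per kb) and AstC (120 ± 1.11) did not differ beyond their spread, and both lay above Orcokinin (71.7 ± 4.78). Of the insulin-like peptides only Ilp3 was used, with a mean of 3.91 CPM, and it was named after its value was seen.

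Most of the listed transcription factors of midgut regions were in use. Of all identifiers 51.7% were. Each library is a pool of midguts, so the region of expression is not shown. Of 16 listed factors 14 were used, including Ptx1 (162, 141 and 135 CPM), vnd (146, 108 and 102 CPM), exex (136, 116 and 99.7 CPM), dve (131, 110 and 102 CPM) and cad (69.9, 59.2 and 55.6 CPM). Of the Hox genes, which set position along the body, lab had 21.2, 22.5 and 19.7 CPM, Antp 10.8, 11.8 and 12.8 CPM, abd-A 6.19, 5.61 and 6.31 CPM, Ubx 2.32, 1.58 and 1.60 CPM and Abd-B 1.32, 1.43 and 1.11 CPM. lab is known for its role in copper cells. Scr, Dfd and pb were silent. None of the 5 used Hox genes differed 2-fold between libraries, where 14.5% of all used genes did. So few genes cannot be told from that share. Among GATA factors, GATAe, an intestinal regulator, had 195, 118 and 124 CPM, GATAd a mean of 34.2 CPM and srp one of 10.8 CPM, while pnr and grn stayed at trace level.

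Markers of tissue attached to the midgut were also in use, though several lists no more often than all identifiers. All 16 visceral muscle markers were used, with 0.340% of the counts, led by Tm1 (517, 511 and 799 CPM), a tropomyosin, and Mhc (610.5, 633 and 558 CPM), the muscle myosin. Of 11 neuron and glia markers 5 were used, with moody, a receptor of the glial barrier, at a mean of 60.5 CPM and elav, a neuronal RNA-binding protein, at 7.89 CPM, while VGlut, Rdl, repo and fne were silent. Tracheal markers had 5 of 6 used, and bnl (mean 24.6 CPM) held 42.0% of their counts. The source of the bnl counts was not tested, and btl, a further tracheal marker, matched no identifier. Malpighian tubule and hindgut markers had 7 of 12 used, haemocyte markers 5 of 7 and fat body markers 7 of 13. Of all identifiers 51.7% were used, so the counts for neuron and glia, Malpighian tubule and hindgut, and fat body markers do not by themselves show attached tissue.

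Some tissues left little trace. Of 11 germline and ovary markers otu alone was used, with a mean of 1.46 CPM, and of 14 genes for eggshell proteins none was used and 12 were silent. Of 15 testis and male markers 13 were silent, the exceptions being mia and topi with means of 19.6 and 6.89 CPM. The germline markers vas and nos and the male markers roX1 and roX2 matched no identifier. All 41 identifiers on the Y chromosome were at 0. This says nothing about tissue, because the flies were female and all 37 mitochondrially encoded genes were at 0 as well. Of 8 salivary gland markers 1 was used. Sensory families were mostly silent. Of 268 genes for odorant, gustatory and ionotropic receptors, odorant-binding proteins, rhodopsins and pickpocket channels 14 were used and 199 silent, and together they took 0.00541% of the counts. Or43b had a mean of 4.74 CPM, Gr89a one of 2.92 CPM and Ir62a one of 7.34 CPM, whereas Orco, the partner that odorant receptors need, had no count. Of 125 cuticle protein genes 2 were used, Cpr78E and Twdlbeta.

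The libraries differed far more than counting error. Across used genes the median ratio of the highest to the lowest library was 1.42. A ratio of at least 2 was found for 1178 of 8114 used genes (14.5%), and for 352 between replicates 1 and 2 alone. The common coefficient of biological variation, the spread beyond counting, was 0.307 over the 3 libraries and 0.247 without replicate 3. Replicate 3 was at least 2-fold above both others for 340 genes (4.19%) and below both for 116 (1.43%). Replicate 1 was above for 61 genes (0.752%) and below for 50 (0.616%), and replicate 2 above for 28 (0.345%) and below for 66 (0.813%). Over all used genes the median of log2 CPM, relative to each gene's mean, was 0.07, -0.17 and 0.09, and with TMM scaling, which balances the typical gene between libraries, it was 0.01, -0.02 and 0.01.

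**Figure D4:**
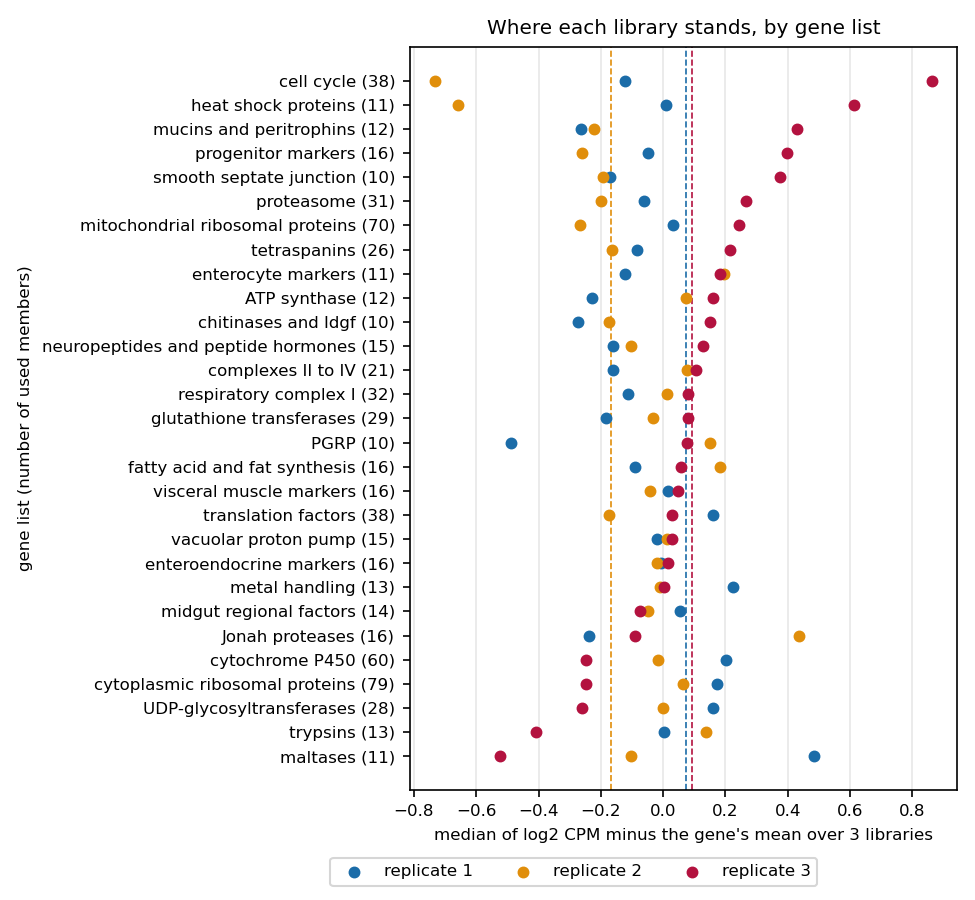
Median over the used members of each list (number in brackets) of log2 CPM minus the gene's mean over the 3 control libraries, with 1 point for each library and dashed lines at the medians over all used genes. Cell cycle genes lie at 0.86 and maltases at -0.52 in replicate 3, while the vacuolar proton pump and the enteroendocrine markers lie close together in all libraries.

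Genes of proliferation stood higher in replicate 3. Of 38 used cell cycle genes 31 were highest there, and 30 with TMM scaling, against 3790 of all 8114 used genes. At least 2-fold above both other libraries were 17 of the 38. Some of these pass 1 CPM only through replicate 3. Of the 32 genes used by the mean of replicates 1 and 2, 25 were highest in replicate 3 and 12 were at least 2-fold above, against 3704 and 280 of 8059 genes chosen the same way. The cyclin CycB had 103, 145 and 824 counts, the replication clamp PCNA 291, 319 and 1827 counts, the nucleotide reductase subunit RnrL 568, 551 and 3337 counts and the phosphatase stg, which starts mitosis, 27, 44 and 351 counts. Each was many times higher in replicate 3, and these 4 were named after their values were seen. SMC2, of the condensin complex, went the other way, with 254, 211 and 146 CPM. Among progenitor markers 5 of 16 were at least 2-fold above in replicate 3: Sox21a, Sox100B, stg, Pvf2 and E(spl)malpha-BFM. Over all used genes 340 of 8114 were. Of the 15 progenitor markers used by the mean of replicates 1 and 2, 4 were, against 280 of 8059 genes chosen the same way. The progenitor list was mixed, with 9 of 16 highest in replicate 3, 6 highest in replicate 1 and 3 lowest in replicate 3, among them mira (13.3, 14.1 and 8.22 CPM). stg passes 1 CPM only through replicate 3.

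Some genes for signals between cells were also high in replicate 3. The list of gut redox and cytokine genes showed no common direction, with 3 of 8 used genes highest in replicate 3, 2 lowest there and a median of 0.02. In a list of cytokines, growth factors and stress signalling drawn up after the values were seen, all 14 used genes were highest in replicate 3 and 8 were at least 2-fold above both others, counts that the choice of genes fixed in part. The JAK/STAT ligands upd3 and upd2 had 88, 173 and 3461 counts and 16, 21 and 600 counts. Socs36E, a target and inhibitor of that pathway, had 30.1, 31.0 and 215 CPM. The stress-induced factor Ets21C had 2.83, 5.12 and 43.7 CPM, the growth factor Pvf1 had 1032, 1434 and 11618 counts, and rho, which releases EGF receptor ligands, 1.48, 1.90 and 11.2 CPM. For all of these replicate 3 was far above both other libraries, which differed from each other most for upd3 and Ets21C. Stat92E, the transcription factor of the JAK/STAT pathway, stayed close, with 297, 295 and 302 CPM.

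Several named genes of antiviral defence were high in replicate 3 as well. They come from a list drawn up because such genes were seen to be high there, so its counts, 8 of 9 used genes highest and 5 at least 2-fold above both others, describe the choice and support nothing about the group. cGlr1, a receptor that senses double-stranded RNA, had 1.24, 2.26 and 42.4 CPM. Srg2 and Srg3, genes regulated by Sting, had 226, 374 and 2931 CPM and 87.2, 124 and 460.5 CPM, and the antiviral gene Nazo had 72.7, 84.0 and 459 CPM. Sting itself had 58.7, 45.7 and 74.0 CPM, a narrower range. Among genes with the largest ratios at a mean of at least 10 CPM, Mov10, an RNA helicase, had 3.97, 12.7 and 335 CPM, CG14499 had 5.72, 34.9 and 1094 CPM, CG42807 had 10.9, 38.9 and 583 CPM and lncRNA:CR32368 had 2.85, 7.35 and 304 CPM. In all of these replicate 2 lay above replicate 1 and far below replicate 3. Whether these genes and the proliferation genes have a common source was not tested.

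Several housekeeping lists had most genes on the same side in a library. In replicate 3 all 31 used proteasome genes and all 11 used heat shock proteins were highest, with medians of 0.27 and 0.61 on the log2 scale. With TMM scaling these counts were again 31 and 11, and with RLE size factors 30 and 11. Over all used genes replicate 3 was highest for 3790 of 8114 by library totals, 3046 of 8111 with TMM scaling and 3031 with RLE size factors. Heat shock proteins also spread widely, with 6 of 11 at a ratio of at least 2, against 14.5% of all used genes. Their median in replicate 2 was -0.66. Hsp83, a chaperone, had 1442, 866 and 2359 CPM. Ribosomal proteins were lowest in replicate 3 for 76 of 79 genes, and for 77 with TMM scaling, with a median of -0.25. Over all used genes replicate 3 was lowest for 1702 of 8114, and for 2696 of 8111 with TMM scaling. The highest library of the ribosomal proteins depended on the scaling. It was replicate 1 for 77 genes by library totals, against 3447 of 8114 used genes, and replicate 2 for 64 with TMM scaling, against 2250 of 8111. ATP synthase genes were lowest in replicate 1 for 12 of 12 genes under both scalings, against 1624 of 8114 used genes by library totals and 2713 of 8111 with TMM scaling. Their highest library was replicate 3 for 11 genes by totals and replicate 2 for all 12 with TMM scaling. None of the used proteasome, ribosomal, ATP synthase or complex I genes had a ratio of 2, against 14.5% of all used genes.

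Some genes were low in replicate 3. ninaD, a receptor for carotenoid uptake, had 31594, 24731 and 5218 counts. Of 7 used fat body markers 4 were at least 2-fold below both others, against 116 of 8114 used genes. They were Yp1 (46.0, 22.5 and 5.62 CPM), Yp2 (16.4, 14.2 and 2.42 CPM), Yp3 (20.7, 11.4 and 2.22 CPM), which encode yolk proteins, and apolpp (14.9, 7.64 and 3.12 CPM), the main lipid carrier of the blood. The other 3 used markers did not share this. Tsf1 had 4.85, 7.15 and 5.90 CPM, Apoltp 1.34, 1.16 and 1.20 CPM, and Lsp1gamma, highest in replicate 3, 0.427, 1.46 and 1.95 CPM. The summed fat body list came to 106, 66.0 and 23.2 CPM, and Lsp1alpha was at 0 and Fbp1 at 0 in replicates 1 and 2. The part of attached fat body in this difference was not tested.

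Most maltases were highest in replicate 1, though no amylase was. Of 11 maltases 9 were highest there, against 3447 of 8114 used genes, and 8 with TMM scaling, against 2815 of 8111. At least 2-fold above both others were 4, against 61 of 8114 used genes. Try29F, a trypsin, had 269, 7.60 and 8.66 CPM, and Cyp28d1, a P450, had 624, 175 and 82.6 CPM. CG6012 had 35.0, 5.69 and 4.27 CPM and CG15263 had 325, 79.5 and 75.1 CPM. On the low side CG4563 had 23.6, 435 and 391 CPM, Prx6c 3.36, 13.7 and 19.5 CPM and tim, a clock gene whose messenger cycles over the day, 145, 607 and 497 CPM. In a clock list drawn up after the values were seen tim was the only 1 of 8 genes with a ratio of 2, and per had 6.74, 4.35 and 7.16 CPM. The time of dissection is not in the labels, and its part was not tested.

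Replicate 2 lacked some genes almost wholly. CG16826 had 27103, 1 and 25937 counts, lcs 5968, 1 and 7430 counts and whe 4789, 2 and 5537 counts. lcs and whe are neighbouring protein-coding genes on the X chromosome in the annotation. In all, 10 genes had under 10% of either other library in replicate 2, against 1 such gene in replicate 1 and 4 in replicate 3. Among the 10 were CG33109 (1087, 0 and 1086 counts), CG34212 (1198, 1 and 1013 counts), CG43680 (258, 0 and 234 counts) and the maltase Mal-B1 (1834, 15 and 646 counts). For these the other libraries were close to each other except for Mal-B1.

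Other genes were higher in replicate 2, and some of them were near 0 elsewhere. Cyp4g1, which makes cuticle hydrocarbons, had 54, 3426 and 11 counts, and Fad2, a desaturase for female pheromones, had 0, 348 and 0 counts. Both are known as genes of oenocytes, cells attached to the body wall. The antimicrobial peptide Mtk had 0, 137 and 10 counts, and the peptidoglycan-degrading PGRP-SC1a and PGRP-SC1b had 11.6, 61.4 and 15.6 CPM and 32.1, 168 and 38.4 CPM, though PGRP-SC1a and PGRP-SC1b are near-identical copies. All 5 used haemocyte markers were highest in replicate 2, against 877 of 8114 used genes, Hml with 702, 2689 and 1025 counts among them. NimC1 and eater pass 1 CPM only through replicate 2, and the 3 used by the mean of the other libraries were highest there too, against 857 of 8165 genes chosen the same way. The summed haemocyte list came to 13.5, 44.8 and 19.8 CPM. Of the markers not in use, lz, a factor of crystal cells, had a mean of 0.0428 CPM and He one of 0.0675 CPM. The part of oenocytes and haemocytes in these differences was not tested. Of the 16 Jonah proteases 12 were highest in replicate 2 by library totals, where 877 of 8114 used genes were, and 14 with TMM scaling, where 2250 of 8111 were.

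**Figure D5:**
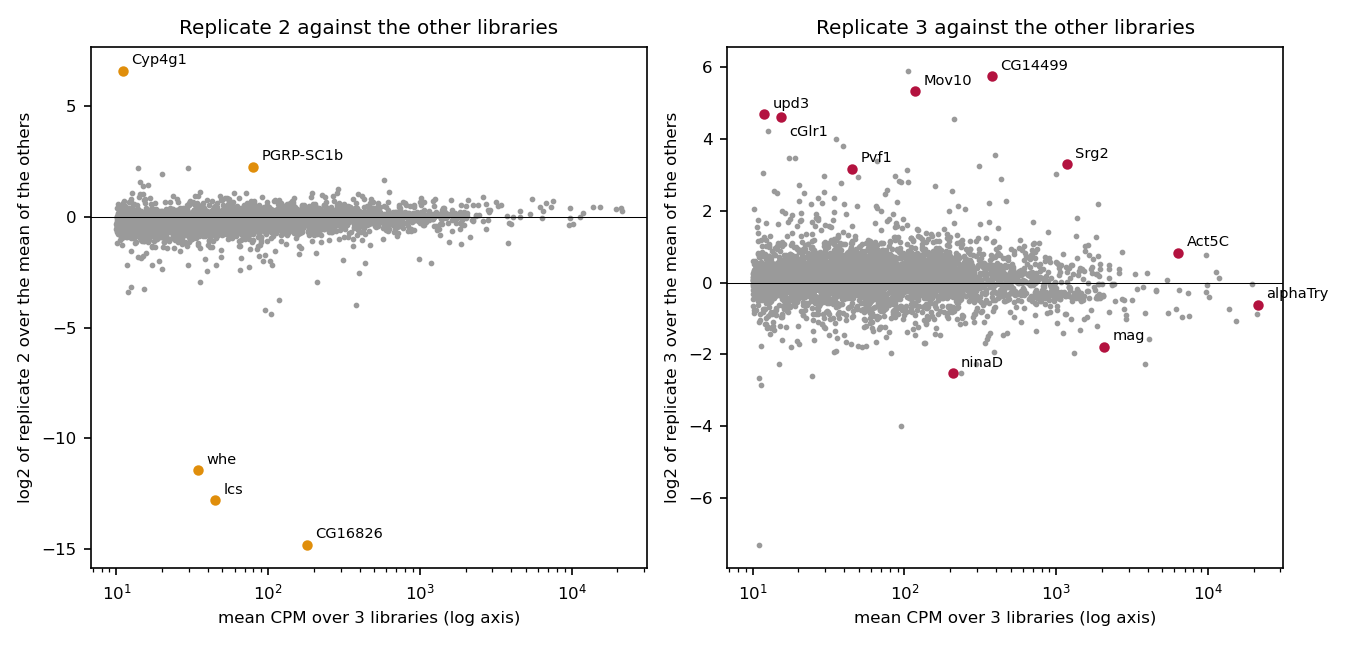
Log2 of replicate 2 (left) and replicate 3 (right) over the mean of the other control libraries, for genes with a mean of at least 10 CPM, against mean CPM on a log axis. In replicate 2, CG16826, lcs and whe lie far below and Cyp4g1 far above the other genes. In replicate 3, a larger group lies above 0, including upd3, cGlr1, Mov10, CG14499 and Srg2, while mag and ninaD lie below.

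Other genes barely moved. At a mean of at least 10 CPM the smallest ratios belonged to Inx2, a gap junction protein, with 143 CPM in every library, Itpr, the calcium channel of the endoplasmic reticulum, with 54.0, 54.2 and 54.3 CPM, Tis11, an RNA-binding protein, with 127, 127 and 128 CPM, CG7054 with 152, 152 and 151 CPM and CG9399 with 102, 101 and 101 CPM. Among lists, edgeR's gene-wise coefficient of biological variation had a median of 0.231 for complex I, 0.247 for visceral muscle markers and 0.252 for regional factors. It was 0.264 over all used genes, 0.441 for cell cycle genes and 0.513 for fat body markers. edgeR draws each gene's estimate towards that of other genes, so these values rank the lists and are not the observed spread. The complex I share, for instance, was 0.309%, 0.339% and 0.359% of the gene counts.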

How the data were processed

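RNA sequencing libraries of 3 control midgut pools were used, and the other 6 libraries of the study were not used here. The deposited values are raw counts per gene, whole numbers that the authors made from aligned reads. Per the submitters' processing notes, the tools were TopHat2 2.0.11 and HTSeq, with dm3 as the genome. For HTSeq, neither version nor strand and overlap settings are given in the sources used here. Each table holds 15682 gene identifiers and 5 lines that name no gene, which were left out of library sizes. Of all counted alignments 14.8%, 14.6% and 16.5% were not unique, 1.49%, 1.41% and 1.30% lay outside genes and 0.900%, 0.822% and 0.873% were ambiguous, in replicates 1, 2 and 3. Reads that match near-identical copies are therefore missing from both. Symbols were paired for 15002 identifiers, and exon lengths and chromosomes were read from Ensembl's BDGP6 annotation (release 115), which is a later build, so no coordinates are given.

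CPM were computed from the total of gene counts with Python 3.11.15 and pandas 2.3.3. Ratios between libraries took genes of at least 1 CPM on average. Dispersion, TMM factors (1.04, 0.905 and 1.06) and RLE factors came from edgeR 4.0.16 under R 4.3.3, with an intercept only, after a check on simulated data. A single group allows no test, so no p-value is given. Chi-square per degree of freedom between libraries was 377 to 1055, so none was a copy of another.

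The members and the 62 gene lists were chosen with earlier results of these data known, and 3 further lists were drawn up after the values were seen. Of 388 symbols asked for, 31 matched no identifier. Cyp1 and Cyp40 (cyclophilins) and Cp190 and Cp110 (centrosomal proteins), caught by symbol patterns, were taken out of their lists. Named are the first 30 genes, the first 3 of each list, every member of families of up to 12, cell type markers, the 15 genes with the largest ratio between libraries at 10 CPM or more, the 5 highest and lowest of each library and the 5 with the smallest ratio. Others are named after their values were seen. Alternatives were leaving out each library, TMM and RLE scaling, the median, division by length, other thresholds and filters, and another denominator. Choosing list members by the mean of the other libraries was added after seeing the data.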

Additional observations from a re-analysis of the deposited data

How the results depend on the processing

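No paired analysis was possible because a single group was described and no comparison was tested. Of 119 alternative values of the main results 87 stayed within their limits. For shares and gene means the limit was 1 SD of the 3 libraries. Leaving out 1 library or taking the median cannot move a mean of 3 values that far, so those outcomes were fixed in advance. The mean of tobi fell from 3816 to 1565 CPM without replicate 1 and still counted as within its limit. These tallies are therefore no measure of robustness. With alignments that name no gene in the denominator, the first 10, 30 and 100 genes held 11.9%, 20.3% and 31.2%, the proton pump 1.23% and ribosomal proteins 7.06%. Counting only genes without any count as silent gave 3199. Leaving out 1 library, the genes with a ratio of 2 numbered 352 to 760, the lowest without replicate 3. Replicate 2 stood above both others for 44 genes and below for 30 with TMM scaling, and for 49 and 29 with RLE factors. In the 9439 genes kept by filterByExpr, 1779 had a ratio of 2, with 160 above and 80 below in replicate 1 and 51 and 108 in replicate 2. Without a filter there were 4589, with 806 and 449, 476 and 612, and 1194 and 583 above and below in replicates 1, 2 and 3. At a ratio of 1.5 there were 3299, with 318 and 153, 80 and 484, and 800 and 343. These counts change by construction with the number of genes admitted and the ratio asked for. Of 614 values for single genes and lists 582 stayed within their limits, and 32 moved, all of them counts of used genes in lists with members near the threshold. Depth limits the silent class to genes above about 3 counts in a library, and 3 libraries limit every SD given.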
